A study of Rattus norvegicus with 7 samples.

Results

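The microRNAs miR-103-3p and miR-107-3p were examined in rat primary skeletal muscle cells that differentiated with or without the cytokine interleukin-6 (IL-6), which immune cells and working muscle release. The pair comprised all array features whose deposited miRNA name was rno-miR-103-3p or rno-miR-107-3p, which is 2 of the 719 rat miRNAs on the array. The cells came from limb muscle of neonates, were bought from a cell bank at low passage, and were switched from serum-rich growth medium to medium with little horse serum to differentiate. All samples were taken on day 11 of differentiation. The control group held 3 untreated samples (0 ng/ml IL-6), and the IL-6 group held 4 samples with recombinant IL-6 made in bacteria, at 1 ng/ml throughout differentiation. The sample titles and the design text give these groups, although the growth text deposited with the control samples names IL-6 too. No source used here says whether the samples of a group were separate cultures or animals, so a p-value here covers the spread between the arrays, which may be technical.

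MicroRNAs are short RNAs that pair with messenger RNAs, mainly through the bases near their 5′ end called the seed, and lower the output of those messengers. The genes for miR-103 and miR-107 lie in introns of the pantothenate kinase genes, whose enzymes carry out the first step of coenzyme A synthesis. In obese mice, silencing the pair improved glucose handling, and caveolin-1, a protein of membrane pits that holds insulin receptors, is a target there. In human breast cancer cells the pair also targets Dicer, the enzyme that cuts miRNA precursors.

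The mature sequences are shown first because the pair can be told apart at a single base. They are from RefSeq, written 5′ to 3′, with the seed (bases 2 to 8) in capitals.
miR-103-3p: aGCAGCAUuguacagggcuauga
miR-107-3p: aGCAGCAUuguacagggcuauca
Both are 23 bases long, and 22 of the 23 bases are the same. The difference, counted from 1 at the 5′ end of miR-103-3p, is G22C. The seed GCAGCAU was held by 2 of the 693 mature rat miRNAs in the RefSeq table used here, and these were the pair.

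The hairpins that carry them are shown to place both miRNAs in the genome (RefSeq, build GRCr8, transcribed strand, mature 3p arm in capitals). MiR-103-3p has 2 genes with the same mature sequence. Mir103a1 lies on the plus strand at chr10:20748474-20748559, inside Pank3 (chr10:20733191-20757017, plus strand). Mir103a2 lies on the plus strand at chr3:138963227-138963312, inside Pank2 (chr3:138936448-138974196, plus strand). Mir107 lies on the minus strand at chr1:241750418-241750504, inside Pank1 (chr1:241737371-241808126, minus strand).
Mir103a1: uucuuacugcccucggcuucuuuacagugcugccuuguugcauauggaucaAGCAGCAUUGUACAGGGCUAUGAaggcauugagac
Mir103a2: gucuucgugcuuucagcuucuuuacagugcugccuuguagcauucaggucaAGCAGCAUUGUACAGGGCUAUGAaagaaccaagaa
Mir107: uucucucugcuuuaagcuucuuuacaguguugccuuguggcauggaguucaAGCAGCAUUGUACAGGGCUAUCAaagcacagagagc
Each hairpin lay within its host gene on the same strand. The array cannot divide the signal of miR-103-3p between Mir103a1 and Mir103a2, because their mature products are identical.

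The array carried 2 probes for each miRNA, shown here because their length and the single differing base set what each can measure. The base opposite mature base 22 is in capitals, and it is base 2 of every probe.
miR-103-3p 18-base probe: tCatagccctgtacaatg
miR-103-3p 17-base probe: tCatagccctgtacaat
miR-107-3p 20-base probe: tGatagccctgtacaatgct
miR-107-3p 19-base probe: tGatagccctgtacaatgc
The probes paired with mature bases 6 to 23, 7 to 23, 4 to 23 and 5 to 23 in that order. Each had 1 mismatch to the other miRNA of the pair. The 15-base stretch atagccctgtacaat occurred in these 4 probes and in no other of the 1730 miRNA probes. How much of each probe's signal came from the other miRNA was not tested.

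RNA of each sample was hybridised to its own single-colour array. All 7 arrays sat on 1 slide with 1 scan time, the controls in slide row 1 and the IL-6 samples in slide row 2, so the effect of slide row and that of IL-6 cannot be told apart. Per array, 174 to 185 miRNAs were detected in the controls and 179 to 207 with IL-6, and 168 were detected on all arrays. Signals were scaled between arrays to the 75th percentile over 268 bright probes, and the scaling factor ran from 0.852 to 1.00 in the controls and from 0.882 to 1.25 with IL-6. Differences were tested with limma over 181 miRNAs, with Benjamini-Hochberg adjustment and a threshold of 0.05. The number of arrays limits the precision, and the median standard error (SE) of a log2 fold change over the tested miRNAs was 0.07.

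The labelled cell type was set against marker miRNAs. None of the 7 listed miRNAs of skeletal muscle, among them miR-206-3p of developing fibres and miR-1-3p and miR-133a-3p of mature ones, was detected on any array. Their summed scaled signal lay between -26.8 and -18.9 intensity units in the controls and between -28.6 and -2.59 with IL-6. All 5 listed miRNAs of fibroblasts and smooth muscle (miR-143-3p, miR-145-5p, miR-199a-3p, miR-199a-5p and miR-214-3p) were detected on every array, with summed scaled signals of 23370 to 25110 in the controls and 20800 to 24090 with IL-6. The markers of muscle fibres were therefore at background by these probes, and the samples are called by their label with that limit. The 2 endothelial and 6 epithelial markers were detected on no array, as were 5 of the 6 haematopoietic ones, and the remaining one, miR-223-3p, was detected on 1 array. Of the 7 neural markers, 4 were detected on no array and 3 were tested. By limma 0 of the neural markers and 0 of the fibroblast and smooth muscle markers passed the threshold, and 0 had an unadjusted p under 0.05.

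Both miRNAs were detected on all 7 arrays in both groups, and neither passed the threshold. The log2 fold change of miR-103-3p was -0.05 ± 0.038 (SE, 3 control and 4 IL-6 arrays), and that of miR-107-3p was -0.14 ± 0.049. Both values were positive, at 0.12 and 0.04, without scaling and, at 0.13 and 0.05, with scaling to the spike-in probes. Those settings also moved the median of all tested miRNAs, from 0.02 to 0.17 and 0.18. Relative to the median of all tested miRNAs, the fold change was below 0 in all 27 settings examined, between -0.13 and -0.0044 for miR-103-3p and between -0.20 and -0.11 for miR-107-3p. Settings that changed only the floor, the filter or limma's variance estimate left both fold changes themselves as they were. Those with an array left out reuse the same data, so the 27 settings are not independent checks. None of the 27 settings read miR-103-3p from its 17-base probe alone. With the reported scaling, that probe stood at a log2 fold change of 0.06, above the median of 0.02. In RNA from whole cultures, fewer cells that hold a miRNA and less of it per cell cannot be told apart.

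MiR-103-3p was read from its 18-base probe, the brighter of its probes. The scaled intensity was 566.3, 576.9 and 577.0 in the controls, and 527.1, 538.7, 561.9 and 581.9 with IL-6. The groups overlapped: IL-6 replicate 4 was above all controls, and the other IL-6 samples were below them. On the log2 scale the mean level was 9.16 ± 0.016 (SD, n = 3) in the controls and 9.11 ± 0.064 (SD, n = 4) with IL-6. The difference corresponds to -3.73%, with a 95% interval of the log2 fold change from -0.15 to 0.04 and limma adjusted p = 0.460. Of the 181 tested miRNAs, 49 had a lower fold change.

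MiR-107-3p was read from its 20-base probe. The scaled intensity was 592.0, 597.4 and 611.7 in the controls, and 512.1, 532.6, 556.0 and 586.0 with IL-6. All IL-6 samples were below all controls, although the gap between IL-6 replicate 4 and control replicate 1 was smaller than the spread within either group. The mean log2 level was 9.23 ± 0.024 (SD, n = 3) in the controls and 9.09 ± 0.084 (SD, n = 4) with IL-6. This difference of -9.05% had a 95% interval of the log2 fold change from -0.26 to -0.02, and limma gave an unadjusted p = 0.0307 and an adjusted p = 0.149. A two-sided exact permutation test over the 35 splits of the arrays gave p = 0.0571 for miR-107-3p and p = 0.314 for miR-103-3p. Of the 181 tested miRNAs, 20 had a lower fold change than miR-107-3p.

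Slide columns 1, 3 and 4 each held 1 control and 1 IL-6 array, which allowed the pair to be compared within a column. The log2 difference of miR-107-3p (IL-6 minus control) was -0.21, -0.10 and -0.06 in these columns, below 0 in each. That of miR-103-3p was -0.10, -0.04 and 0.01. With the column as a block, miR-107-3p stood at -0.12 ± 0.040 (SE, limma adjusted p = 0.175) and miR-103-3p at -0.04 ± 0.033 (adjusted p = 0.515).

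These values were read against all tested miRNAs. The threshold was passed by 17 of 181 miRNAs (9.39%), of which 9 rose and 8 fell (4.42%). This count was 0 when slide column entered as a block. It was 0 without control replicate 1, 2 without control replicate 2, 5 without IL-6 replicate 3 and 6 without IL-6 replicate 4, so the share is a loose reference (limma unadjusted p under 0.05: 52 with the block and 35 without control replicate 1). An unadjusted p under the threshold value was reached by 27.1% of the tested miRNAs. Control and IL-6 samples did not overlap for 22.1% of the tested miRNAs, and 10.5% did not overlap with IL-6 lower, as miR-107-3p did. Over the tested miRNAs the fold change (log2) had a median of 0.02, with 99 above 0, 77 below and 5 at 0, which had only floor values. The summed signal of the fibroblast and smooth muscle markers also reached lower values with IL-6, as given above, and its part in the level of miR-107-3p was not tested.

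**Figure D1:**
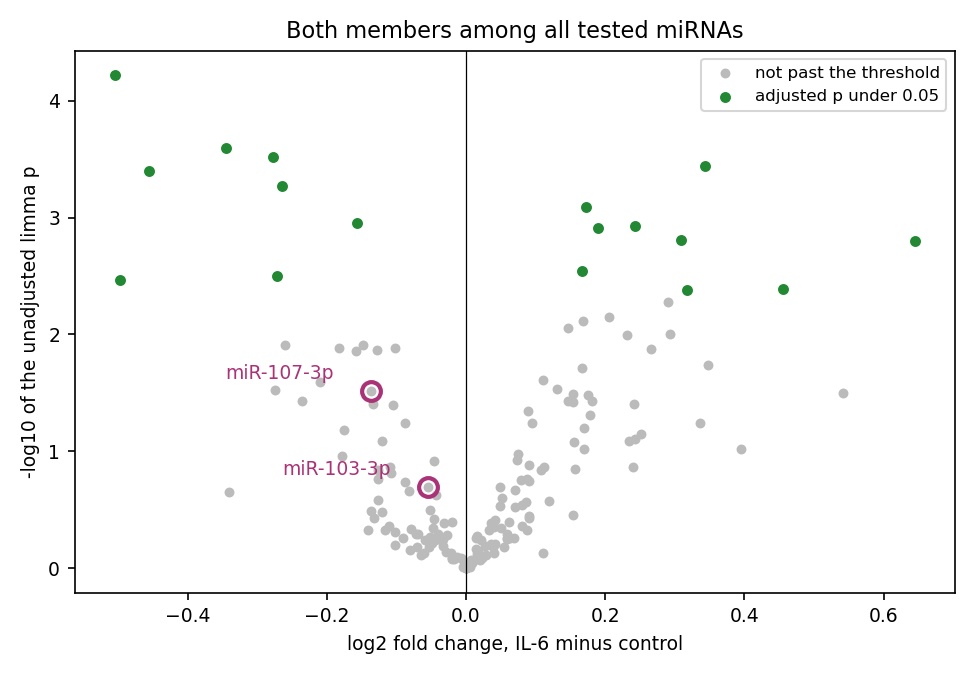
Each point is 1 of the 181 tested miRNAs, with its log2 fold change (IL-6 minus control) on the x axis and -log10 of its unadjusted limma p on the y axis; the 17 miRNAs past the threshold are in green and the pair is ringed. MiR-103-3p at -0.05 and miR-107-3p at -0.14 lie among the grey points that did not pass, to the left of 0.

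The single probes showed how far the readings of 1 miRNA go together. Each probe had 10 spots per array, and all 70 spots of each probe over the 7 arrays were well above background and not saturated. Between 1 and 4 of a probe's 70 spots were left out as outliers, and the spots of a probe on 1 array varied with a coefficient of variation of 1.19% to 9.44%. A probe's brightness depends on its sequence, so no probe's level is set against another's.

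Before scaling, the mean spot signal of the 18-base probe of miR-103-3p was 482.6, 547.4 and 577.8 in the controls, and 465.0, 673.8, 597.9 and 611.9 with IL-6. The 17-base probe read 257.1, 313.0 and 309.8 in the controls, and 281.8, 399.8, 354.2 and 356.0 with IL-6. Replicate 1 of each group was the dimmest and IL-6 replicate 2 the brightest for both probes. The 20-base probe of miR-107-3p read 504.6, 566.8 and 612.6 in the controls, and 451.8, 666.3, 591.6 and 616.2 with IL-6. Its 19-base probe read 192.7, 209.5 and 227.6 in the controls, and 164.7, 250.4, 221.9 and 230.4 with IL-6. Before scaling, the groups overlapped for all 4 probes.

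After scaling, the 17-base probe of miR-103-3p read 301.6, 329.9 and 309.4 in the controls, and 319.4, 319.6, 332.9 and 338.6 with IL-6. These groups overlapped through control replicate 2, with the other controls below all IL-6 samples. The 19-base probe of miR-107-3p read 226.1, 220.7 and 227.3 in the controls, and 186.7, 200.2, 208.5 and 219.1 with IL-6. Here all IL-6 samples were below all controls, as for the 20-base probe.

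In a limma fit over the 268 bright probes, none of the 4 passed the threshold, and their unadjusted p was 0.0531 to 0.354. The log2 fold change was -0.05 ± 0.056 (SE) for the 18-base probe and 0.06 ± 0.057 for the 17-base probe of miR-103-3p, with adjusted p of 0.635 and 0.559. It was -0.14 ± 0.061 for the 20-base probe and -0.14 ± 0.065 for the 19-base probe of miR-107-3p, with adjusted p of 0.186 for both. The probes of miR-107-3p thus gave the same value, and those of miR-103-3p lay on either side of 0. With the mean of its probes in place of the brighter one, miR-103-3p stood at 0.0044, where the sign is turned. Of the 268 bright probes, 7.46% passed the threshold and 27.2% had groups that did not overlap.

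**Figure D2:**
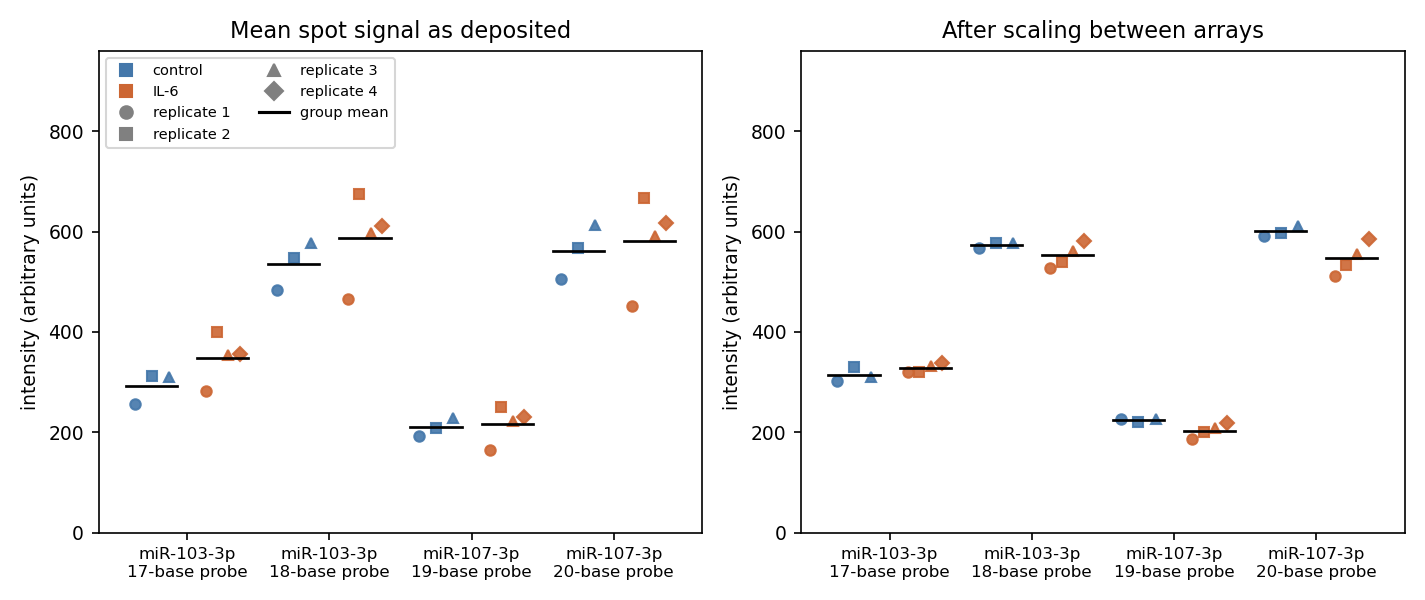
The mean spot signal of each probe as deposited (left) and after scaling between arrays (right), in arbitrary intensity units, with 1 point per array and a bar at each group's mean. After scaling, the IL-6 arrays of both miR-107-3p probes lie below all control arrays, while the groups overlap for both miR-103-3p probes.

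The ratio of the probes on each array does not depend on a scaling factor for that array. It answers whether the probes changed unequally. Whether the miRNAs did cannot be read from it, because the signal that each probe takes from the other miRNA was not tested. The intensity of the 18-base probe of miR-103-3p over that of the 20-base probe of miR-107-3p was 0.957, 0.966 and 0.943 in the controls, and 1.03, 1.01, 1.01 and 0.993 with IL-6. All IL-6 samples were above all controls. The log2 ratio differed by 0.08 (5.85% higher with IL-6; SD 0.02 in each group), which was larger than the spread between replicates. A two-sided exact permutation test gave p = 0.0286, the smallest that 35 splits can give. With Benjamini-Hochberg adjustment over the 6 probe ratios examined, this was 0.0343, as for each ratio given below with the same p. The 6 ratios share probes, and the one between the probes of miR-103-3p was chosen after its values were seen. The adjusted value is therefore not a full correction for multiple tests. Within slide columns 1, 3 and 4 the log2 ratio was higher with IL-6 by 0.11, 0.07 and 0.07. A ratio shows that the probes changed unequally, and not which of them changed.

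The remaining probe combinations ran the same way. The log2 ratio of the 18-base to the 19-base probe was higher with IL-6 by 0.09. With the 17-base probe of miR-103-3p, the difference was 0.20 against the 20-base probe (14.9%) and 0.21 against the 19-base probe (15.5%). All 3 had groups that did not overlap and the same exact permutation p = 0.0286. These ratios share probes and arrays and are not independent of each other.

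For the brightest probes of the pair, the unequal change was of a common size among pairs of miRNAs on this array. Among all 14028 pairs of the 168 miRNAs detected on every array, 26.9% had ratios that did not overlap between the groups. The median size of the log2 difference over those pairs was 0.14. At least as large a difference as between the brightest probes of miR-103-3p and miR-107-3p was reached by 69.6% of pairs. The combinations with the 17-base probe, at 0.20 and 0.21, lay above that median, and no such share was computed for them. The ratio test also missed the threshold under some settings: the exact permutation p was 0.0571 with quantile normalization and 0.0857 with the median over spots. With 1 array left out, the exact permutation p was 0.0667 to 0.1, the smallest values that fewer arrays allow.

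The probes of miR-103-3p also differed between themselves, a ratio chosen after its values were seen. The 17-base over the 18-base signal was 0.533, 0.572 and 0.536 in the controls, and 0.606, 0.593, 0.593 and 0.582 with IL-6. All IL-6 samples were above all controls, by 0.12 on the log2 scale (8.55%), with a two-sided exact permutation p = 0.0286. The shift between these probes, which read the same miRNA, was therefore larger than the 0.08 between the brightest probes of the pair. For the 19-base over the 20-base probe of miR-107-3p, the ratio was 0.382, 0.370 and 0.372 in the controls and 0.365, 0.376, 0.375 and 0.374 with IL-6. These groups overlapped, and the log2 difference was -0.0074 (two-sided exact permutation p = 0.686).

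Over 117 pairs of bright probes that read the same miRNA, covering 115 miRNAs, 18.8% had shorter-to-longer ratios that did not overlap between the groups. The median log2 difference was 0.01, with quartiles of -0.02 and 0.05 and a range from -0.11 to 0.15, and 71 pairs were above 0. The pair of miR-103-3p ranked 7 from the highest, and 5.98% of the pairs had a difference at least as large in size. The pairs ranked above it were all dimmer. Their dimmer probe had a mean log2 level of 4.36 to 5.77, against 8.33 for miR-103-3p, so the rank does not compare probes of like brightness.

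**Figure D3:**
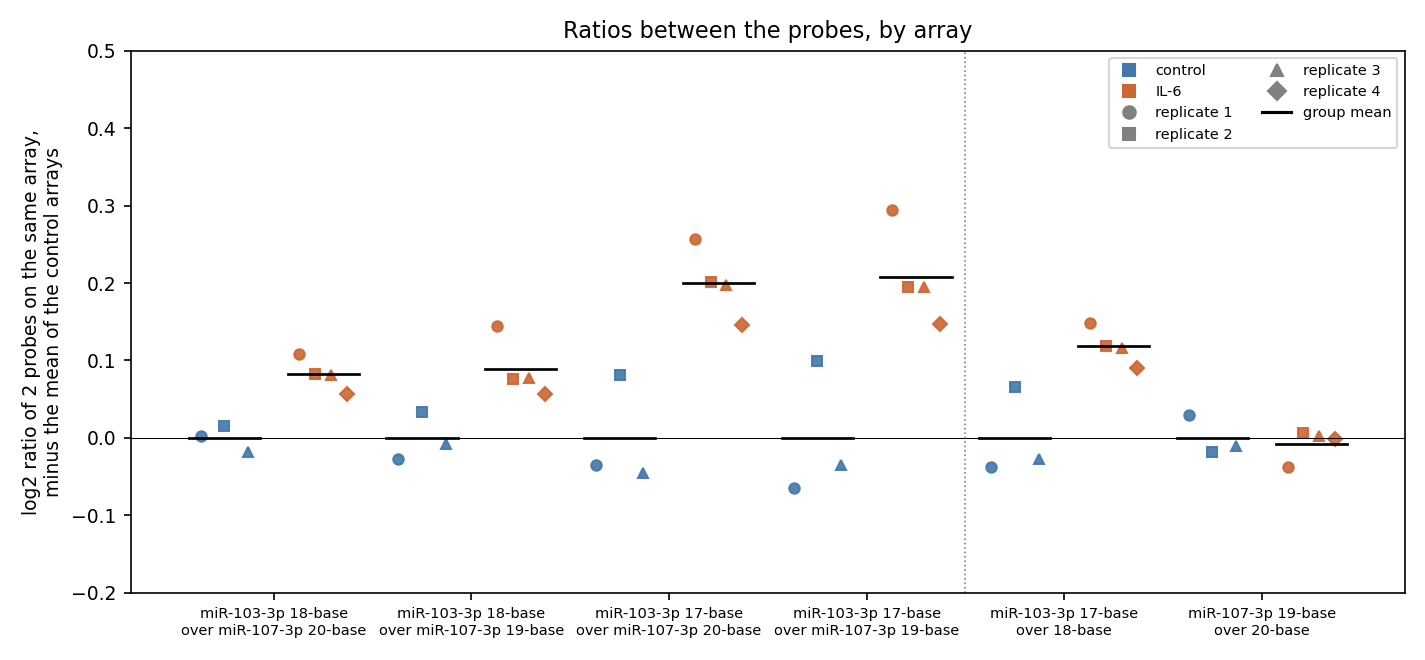
The log2 ratio of probes on the same array, minus the mean of the control arrays, for the combinations of a miR-103-3p and a miR-107-3p probe (left of the dotted line) and for the probes of 1 miRNA (right), with 1 point per array and a bar at each group's mean. All IL-6 arrays lie above all control arrays for each combination and for the 17-base over 18-base probe of miR-103-3p, with group differences of 0.08 to 0.21, while the groups overlap for the probes of miR-107-3p.

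The opposite arms of the hairpins, which are usually degraded once the mature strand is loaded, were on the array as miR-103-1-5p, miR-103-2-5p and miR-107-5p. None of the 3 was detected on any array, and 0 of their 140 spots each over the 7 arrays were well above background. Their probes averaged -5.16 to -0.22, -3.74 to 0.638 and -6.21 to 0.812 intensity units, against 12.9 for the dimmest probe signal called above background on these arrays. By these probes, signal above background from the hairpins was therefore seen for the 3p arms only.

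The miRNAs whose profile was most like each of the pair were ranked by the SD over the 7 arrays of the log2 difference, among 167 others detected on every array. For miR-103-3p these were miR-125b-5p (SD 0.03), miR-365-3p (0.03), miR-99a-5p (0.03), miR-186-5p (0.04) and miR-125a-5p (0.04), against a median of 0.12 over all 167. For miR-107-3p they were miR-27b-3p (0.02), miR-23a-3p (0.03), miR-23b-3p (0.04), miR-345-5p (0.05) and miR-103-3p (0.05), against a median of 0.14. MiR-103-3p was thus the fifth nearest of miR-107-3p, and miR-107-3p ranked 7 for miR-103-3p. The neighbours of miR-103-3p had log2 fold changes of -0.05 to -0.01, and the other neighbours of miR-107-3p had values of -0.13 to -0.12, none past the threshold. Because neighbours were chosen for a small SD over the arrays of both groups, their like fold changes follow from the choice. All these points share the same arrays and scaling, so the likeness is a description.

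The pair belongs to the group of miR-15 and miR-107, mammalian miRNAs that hold AGCAGC near the 5′ end and overlap in their targets, among them cell cycle genes. On the array, 8 miRNAs hold AGCAGC within bases 1 to 8 by the RefSeq sequences, the pair included. The members tested besides the pair are shown with bases 2 to 8 in capitals, because AGCAGC starts at base 1 in the pair and at base 2 in them.
miR-15b-5p: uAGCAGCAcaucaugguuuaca
miR-16-5p: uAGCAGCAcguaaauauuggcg
miR-322-5p: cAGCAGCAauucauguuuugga
Of the 3, 0 passed limma's threshold in either direction, and 0 had an unadjusted p under 0.05. The log2 fold change was 0.24 ± 0.11 (SE) for miR-15b-5p, 0.07 ± 0.062 for miR-16-5p and -0.10 ± 0.20 for miR-322-5p, with limma adjusted p of 0.253, 0.599 and 0.832. Their median was 0.07, beside 0.02 over all tested miRNAs. The other members on the array, miR-195-5p, miR-497-5p and miR-503-5p, were detected on no array.

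A list of 42 miRNAs linked to insulin signalling and glucose handling set the pair beside others of the same field. Of these, 41 were matched on the array by name, 27 had signal called present throughout and 12 on no array, and let-7g-5p was not analysed here. Among the 28 tested, 1 rose (3.57%, beside 4.97% of all tested miRNAs) and 0 fell by limma. At an unadjusted p under 0.05, 5 were higher and 1 was lower, 21.4% of the list beside 27.1% of all tested miRNAs. By fold change, 20 were above 0 (71.4%, beside 54.7% of all tested miRNAs) and 8 below, with a median of 0.02, as over all tested miRNAs, and a range from -0.17 to 0.35. The 20 include every tested let-7 and miR-29 miRNA of the list, and members of 1 family are not independent counts. Among those above 0, miR-33-5p was tested only because it was detected on every IL-6 array (5 arrays in all). Its controls and IL-6 replicate 3 lay at or next to the floor, which sets its fold change, so none is given.

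The miRNA that rose was let-7b-5p, of the let-7 family, which targets insulin receptor messengers. Its log2 level was 10.23, 10.16 and 10.30 in the controls and 10.51, 10.52, 10.45 and 10.42 with IL-6, with all IL-6 samples above all controls. The log2 fold change was 0.24 ± 0.042 (SE) with limma adjusted p = 0.0224. The call held in 12 of 26 alternatives. It was lost without control replicate 1 (adjusted p = 0.0791), control replicate 2 (0.0821), IL-6 replicate 3 (0.0701) or IL-6 replicate 4 (0.0505), and with the slide column (0.0962) or the replicate number (0.117) as a block. It was also lost with quantile normalization (adjusted p = 0.0622), spike-in scaling (0.0916), no scaling (0.311), the percentile over all probes (1), normexp (0.702), the total gene signal (0.330), outlier spots kept (0.0511) and no filter (0.165). Within slide columns 1, 3 and 4, its log2 level was higher with IL-6 by 0.27, 0.29 and 0.12. MiR-21-5p, a miRNA of many tissues under stress, stood at 0.04 ± 0.084 (adjusted p = 0.839). MiR-143-3p, which lowers insulin-stimulated Akt activation in the liver of obese mice, stood at -0.13 ± 0.082 (adjusted p = 0.420).

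The processing moved the sign of the pair's fold changes more than their order. In each of the settings plotted by scaling, background correction and summary, miR-107-3p lay below miR-103-3p. Scaling by the median of probe ratios was the only setting of the 27 alternatives in which miR-107-3p passed the threshold, at -0.16 ± 0.032 (SE) with limma adjusted p = 0.0274. There miR-103-3p stood at -0.08 with adjusted p = 0.0840.

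**Figure D4:**
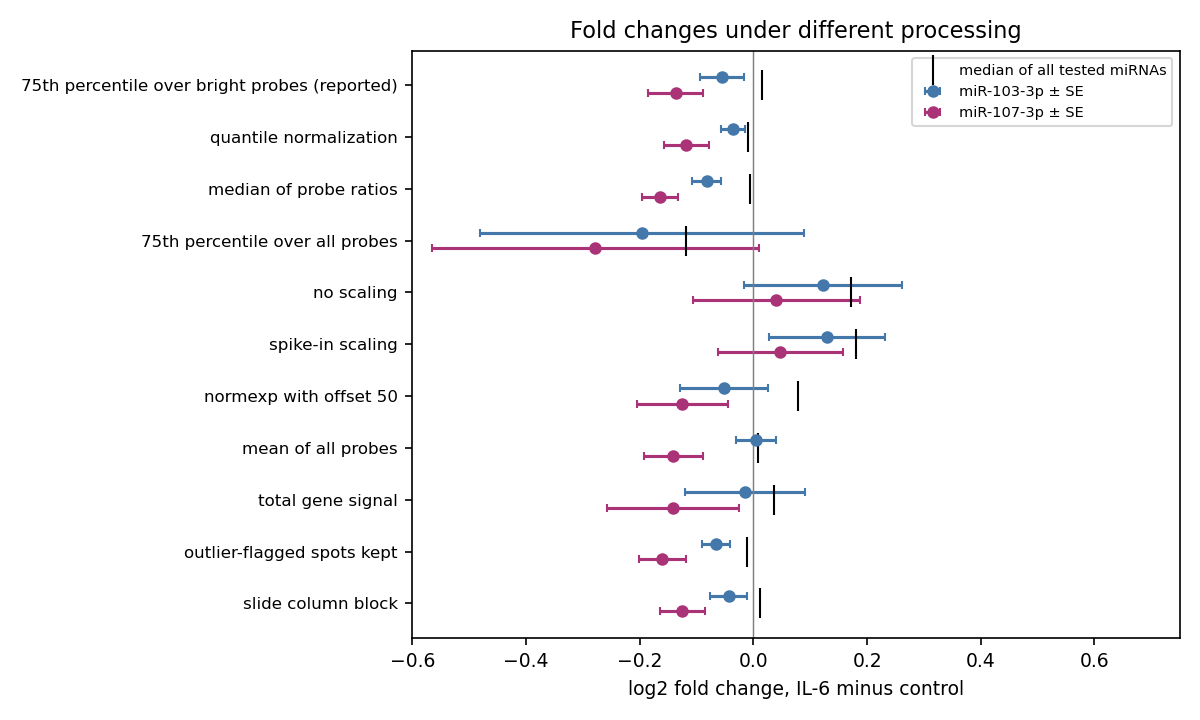
The log2 fold change (IL-6 minus control) of miR-103-3p and miR-107-3p on the x axis under 11 ways of processing, with bars of 1 SE and a tick at the median of all tested miRNAs. MiR-107-3p lies below miR-103-3p in each, both lie above 0 without scaling and with spike-in scaling, and both lie below the median tick throughout.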

How the data were processed

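Total RNA labelled with Cy3 was hybridised to Agilent rat miRNA arrays, per the labels' protocols. The deposited files hold spot intensity values on a linear scale, background-subtracted by Feature Extraction 10.10.1.1 and not scaled between arrays, per the file headers. The deposited value table equalled the total probe signal intensity of the same arrays (largest difference 0). The files place their probes on rn4, and those positions are not printed; sequences and coordinates are RefSeq's, on GRCr8.

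Control spots and outlier-flagged spots (2.88% to 3.84% of 14380) were left out. Spot means per probe were scaled by each array's 75th percentile, taken over 268 bright probes, floored at 15.7 units and log2-transformed. Bright means that a share of 0.5 or more of the spots were well above background on each array. Each miRNA took its brightest probe, and 181 were tested, those detected throughout at least 1 group, with limma 3.58.1 under R 4.3.3 (lmFit, eBayes, no covariate, Benjamini-Hochberg over the 181). Probes were fitted likewise over the 268. Ratios were tested with two-sided exact permutation tests. The fit was tested on simulated data.

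The miRNAs named are the pair with all probes, its opposite arms, the group of miR-15 and miR-107, the 5 nearest profiles of each and, of the insulin list, up to 4 past the threshold and then those of highest level until 3 were named; miR-33-5p was added for its detection. The members and lists were chosen with earlier results of these data known. Alternatives covered scaling, background correction, summary, floor, filter, model and left-out arrays; those for let-7b-5p and the ratio of the miR-103-3p probes were added after seeing the data.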

Additional observations from a re-analysis of the deposited data

Results flagged for a closer look

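In the IL-6 group, the 19-base over 20-base probe ratio of miR-107-3p had 1 array apart from the rest. IL-6 replicate 1 was low, at a log2 ratio of -1.46, against -1.42 to -1.41 in the other IL-6 samples. Its gap to the nearest sample was 0.831 of the group's range, above Dixon's 95% critical value for 4 samples. This was examined for 9 quantities of the pair, and chance exceeds the critical value in about 1 in 20 groups. The 9 share probes and are not all distinct, because each miRNA and its brightest probe hold the same values.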

How the results depend on the processing

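Over 27 alternatives, the log2 fold change of miR-103-3p ran from -0.20 to 0.13 (adjusted p 0.0840 to 1) and that of miR-107-3p from -0.28 to 0.05 (adjusted p 0.0274 to 1), with the sign and side of the threshold kept in 24 for each. Signs turned without scaling (miR-103-3p and its 18-base probe 0.123, miR-107-3p and its 20-base probe 0.0407, 19-base probe 0.0332), with spike-in scaling (0.130, 0.0475 and 0.0401 in the same order), with the mean of all probes (miR-103-3p 0.00440) and, for the 17-base probe, when the percentile was taken over all probes (-0.0777). The median of probe ratios took miR-107-3p past the threshold (-0.16). Alternatives that changed only the floor, the filter or limma's variance estimate left both fold changes as they were, so their signs were fixed. With 1 array left out, miR-103-3p ran from -0.08 to -0.03 (adjusted p 0.232 to 0.691) and miR-107-3p from -0.17 to -0.11 (adjusted p 0.0712 to 0.310). The log2 ratio of the pair stayed above 0 in all 22 alternatives (0.07 to 0.21) but missed the threshold in 11: quantile normalization (0.0818), the median over spots (0.0676), the replicate block (0.0906), the slide column as a block (0.0818) and each left-out array (0.0730 to 0.0906). The block designs cannot reach the threshold (exact p = 0.25), and their values and those of the left-out arrays rest on fewer samples. Same-numbered samples deviated together with correlations of 0.56, -0.10 and 0.38, so the numbers were not taken as pairs. Arrays of the same slide column had correlations of 0.56, 0.14 and 0.28. For a control and an IL-6 array that shared neither number nor column, the correlation ran from -0.54 to 0.19. With the replicate block, miR-103-3p stood at -0.08 (adjusted p = 0.205) and miR-107-3p at -0.17 (0.0962), and 3 miRNAs were called in place of 17.

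The count of called miRNAs stayed within 13 to 25 in 12 of 26 alternatives. With limma it was 0 with the percentile over all probes (1 at an unadjusted p under 0.05), without scaling (29), with normexp (7), with no filter (41) and with the slide column as a block (52). It was 4 with spike-in scaling, 5 with the total gene signal, 11 with a floor 2 times as high and 47 with array weights. With 1 array left out it ran from 0 to 17: it was 0 without control replicate 1 (35 unadjusted), 2 without control replicate 2, 5 without IL-6 replicate 3 and 6 without IL-6 replicate 4. Rises and falls, 9 and 8 as reported, were 7 and 11 with quantile normalization, 11 and 14 with the median of probe ratios, and 4 and 0 with spike-in scaling. For let-7b-5p the call held in 12 of 26 alternatives, with log2 fold changes of 0.10 to 0.43. Why the counts and calls moved was not tested, also where fewer samples or more tested miRNAs were part of the alternative.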
